A study of Mus musculus with 3 samples.

Results

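The cells described here are stroma-like single cells of cultured mouse embryonic kidneys in which transcripts of Wnt4 and Alx1 were counted, 2 genes known from the medullary stroma of the kidney. A well of a cultured plate was taken as such a cell when it held at least 3 counts of Wnt4 and Alx1 together, at least 3 counts of Col1a1, no count of the epithelial genes Epcam, Cdh16 and Cldn6, and fewer than 2 counts each of Six2, a nephron progenitor gene, and Foxd1, a gene of cortical stroma. By this rule 75 of the 500 kept wells of the cultured plates, out of 837 kept wells in the series, were members: 33 of 200 on the E12.5 plate (16.5%, exact binomial 95% interval 11.6 to 22.4%) and 42 of 300 on the E11.5 plate (14.0%, 10.3 to 18.4%). A kept well was labelled neither as a control nor as holding more than 1 cell, had at least 1000 counts of nuclear-encoded genes, and had at most 30% mitochondrial counts. The members were set against comparison wells, which met the same limits but held no count of Wnt4 or Alx1: 51 on the E12.5 plate and 100 on the E11.5 plate. Wells with 1 or 2 counts, 17 and 58 in number, belonged to neither set. Because the rule used Wnt4, Alx1, Col1a1, Epcam, Cdh16, Cldn6, Six2 and Foxd1, the values of these genes are descriptions only.

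The study traced cells that express Lgr6, a receptor for R-spondins, in the developing kidney of C57BL/6 mice. Transcripts were counted by SORT-seq, a method for cells sorted one by one into 384-well plates, where molecular identifiers let each transcript be counted once. All 3 plates came from animals with the LGR6-EGFP-IRES-CreERT2 allele, which places a green reporter and a tamoxifen-inducible Cre recombinase under the control of Lgr6. The cells of the uncultured plate were taken from kidneys at E11.5, where E stands for the embryonic day. The other plates held cells of explanted kidneys from LGR6-EGFP-IRES-CreERT2/ROSA26-tdTomato animals, whose ROSA26 locus carries a tdTomato reporter. The first of them started at E12.5 and was cultured for 5 days. The second started at E11.5 and was cultured for 7 days by its title but 5 days by its stage label. The sources used here do not say whether Cre was induced, how cells were gated at the sort, or how many embryos were pooled. Each group is 1 plate, so no comparison has a replicate and no p-value is given. Starting stage, culture length and plate cannot be told apart, and each comparison between members and comparison wells was therefore made within a plate and then set beside the same comparison on the other plate.

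The stroma of the kidney is the connective tissue between the tubules. Stromal progenitors at the rim of the organ give rise to a cortical stroma and to a medullary stroma around the collecting ducts and loops of Henle. Medullary stroma receives Wnt signals from the collecting duct, which act through beta-catenin and the DNA-binding proteins Lef1 and Tcf7, and it is known for Wnt4 and for Cdkn1c, an imprinted inhibitor of cyclin-dependent kinases needed for a normal medulla. Wnt4 is a secreted ligand that is also made by the condensing cells from which nephrons form, so it does not mark stroma alone. Alx1 is a homeodomain transcription factor best known from the mesenchyme of the face, and Penk encodes proenkephalin, the precursor of opioid peptides.

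Members were somewhat deeper than comparison wells. Their median count of nuclear-encoded genes was 10216 on the E12.5 plate and 11322 on the E11.5 plate, against 7547 and 7263 in the comparison wells. The lowest and highest members had 2762 and 36148 counts on the first plate and 4441 and 29897 on the second. Median mitochondrial shares were 3.79% and 3.31% in members and 3.59% and 3.60% in comparison wells. Since a well needs enough counts to show 3 of a scarce transcript, each well was also thinned to 4000 counts. The rule then found 27 of 187 wells (14.4%) on the E12.5 plate and 20 of 271 (7.38%) on the E11.5 plate. Thinning also lowers the counts of the excluded genes, and wells within the limits rose from 101 to 123 and from 200 to 218. The thinned members can therefore include wells left out before. Of the wells within the limits, members were 22.0% and 9.17% after thinning, against 32.7% and 21.0% before. All 3 plates use the same 384 well names, so shared names do not show shared cells, and 4 positions held a member on both cultured plates. Levels below are CPM, counts per 1000000 nuclear-encoded counts. A level of a group of wells is the CPM of their summed counts, and a ratio is the level in members over that in comparison wells. Intervals are exact 95% intervals that cover counting error only, not differences between cells or plates. Free RNA in the well was not measured apart from the cell.

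The comparison wells were not a pure stromal set. A well was counted as high in another cell type when the macrophage, neural or endothelial marker list reached 2000 CPM in it. This held for 3 comparison wells on the E12.5 plate and 17 on the E11.5 plate, against 0 and 1 members. Summed macrophage markers reached 12081 and 44155 CPM in the highest comparison wells, and 182 and 387 CPM in the highest members. Calls are therefore given with all wells, and where a call or a list's count changes, also without these wells. No caller for doublets was run on the plates.

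Wnt4 and Alx1 were unevenly shared among the members. On the E12.5 plate 23 members held counts of both genes, 7 of Wnt4 only and 3 of Alx1 only. The E11.5 plate had 20 members with both, 18 with Wnt4 only and 4 with Alx1 only. Wnt4 stood at 634 CPM in E12.5 members, with a lowest, median and highest well of 0, 556 and 3221 CPM. In E11.5 members it stood at 565 CPM, with wells at 0, 446 and 5171 CPM. Alx1 stood at 214 CPM in E12.5 members (wells 0, 240 and 860 CPM) and at 140 CPM in E11.5 members (wells 0, 73.3 and 742 CPM). The median member held 7 counts of the pair on the E12.5 plate and 5.50 on the E11.5 plate, so most members lay only a few counts above the limit. Exactly 3 counts were found in 3 and 10 members, and exactly 2 counts, just outside, in 6 and 16 wells. Col1a1, the main fibrillar collagen chain used by the rule as a sign of stroma, differed between plates in its direction, at 3683 CPM in E12.5 members against 8346 in comparison wells, and 11380 against 10404 on the E11.5 plate.

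The markers of medullary stroma that the rule had not used were higher in members on both plates. Cdkn1c stood at 5852 CPM in E12.5 members against 897 in comparison wells, a ratio of 6.53 (interval 5.88 to 7.27). Its lowest, median and highest member wells were 267, 4595 and 20603 CPM, and those of the comparison wells 0, 649 and 5214 CPM. It stood on the E11.5 plate at 2974 against 1060 CPM, a ratio of 2.81 (2.59 to 3.05). There the member wells spanned 0 to 14962 CPM around a median of 2198, and the comparison wells 0 to 5545 CPM around 787. The ranges overlapped on both plates, and every E12.5 member held a count of Cdkn1c.

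Penk stood at 2413 CPM in E12.5 members against 930 in comparison wells, a ratio of 2.59 (2.32 to 2.92). Its member wells had a lowest, median and highest value of 66.8, 2040 and 8011 CPM, and its comparison wells 0, 306 and 5995 CPM. The levels on the E11.5 plate were 1682 and 502 CPM, a ratio of 3.35 (2.98 to 3.77), with wells of 0, 766 and 7574 CPM in members and 0, 261 and 8353 CPM in comparison wells. The single highest E11.5 comparison well thus lay above every member of that plate, while the medians stood apart. Penk was counted in 100% of E12.5 members and 78.4% of comparison wells, and after thinning to 4000 counts in 87.1% and 66.7%. For the E11.5 plate the thinned shares were 69.0% and 62.2%, so that the difference in Penk there lay in its level more than in the share of wells.

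Lef1, a DNA-binding protein of Wnt signalling and in many tissues a target of it, was scarce but unevenly placed. It was counted in 16 of 33 E12.5 members and 4 of 51 comparison wells, and in 14 of 42 E11.5 members and 7 of 100 comparison wells. Its levels were 96.6 against 10.8 CPM on the E12.5 plate, a ratio of 8.95 (3.52 to 29.1), and 72.6 against 8.33 CPM on the E11.5 plate, a ratio of 8.71 (3.86 to 23.1). The median well was at 0 CPM in all 4 groups, and the highest member wells were 513 and 659 CPM. One member held 28.9% of the Lef1 counts on the first plate and one held 30% on the second. After thinning, Lef1 was found in 16.1% of E12.5 members and 0 of 42 comparison wells, where the interval reaches 8.41%, and in 11.9% and 3.66% on the E11.5 plate. Of the 5 markers listed for medullary stroma, the 3 outside the rule were all higher in the summed members of both plates. Cdkn1c and Penk belong to the label given to these cells, and the list was chosen with earlier results of these data known. These values therefore describe the members and are not independent support for their identity. The differences were smaller for E11.5 wells with Wnt4 alone, described further on.

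**Figure D1:**
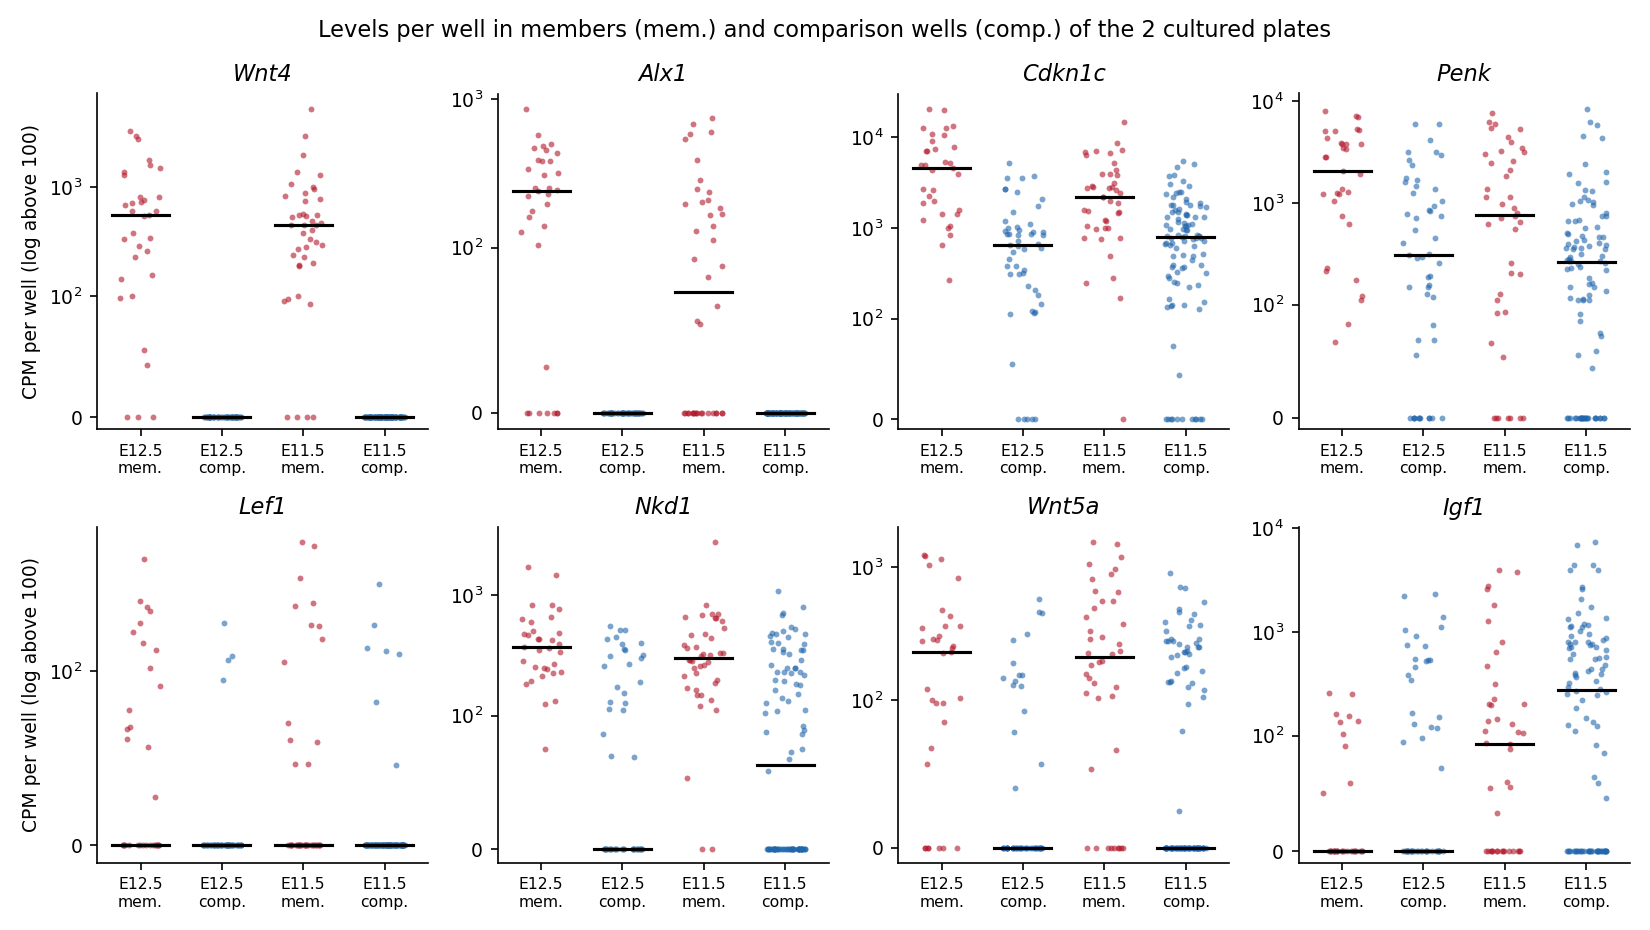
Levels per well, in CPM on an axis that is linear to 100 and logarithmic above, for 8 genes in members (mem., red) and comparison wells (comp., blue) of the E12.5 and E11.5 cultured plates; bars are medians. Cdkn1c, Penk, Nkd1 and Wnt5a have higher medians in members than in comparison wells on both plates while their ranges overlap, Wnt4 and Alx1 are at 0 in comparison wells by the rule, and Igf1 has a median of 276 CPM in comparison wells and 93.2 CPM in members on the E11.5 plate.

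Across all genes, 7570 outside the rule had at least 20 counts in members and comparison wells together on each plate. A gene was called when its ratio was at least 1.5-fold in the same direction on both plates and both intervals left out 1. By this rule 143 genes were higher in members (1.89% of those tested) and 179 were lower (2.36%). Without the wells high in other cell types, 101 of 7181 genes were higher (1.41%) and 80 were lower (1.11%). Of the 143 higher genes 87 were called both ways, and of the 179 lower genes 50 were. Another 38 genes passed the same limits in opposite directions on the plates.

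The 15 genes with the largest ratios among those called higher, each spread over the member wells, were Lef1, Ano1, Neto2, Tcf7, Arl4a, Kcnd3, Thy1, Nectin1, Wnt5a, Tbx2, Synpo2, Rhod, Frem1, Nkd1 and Cdkn1c. All 15 were also called without the wells high in other cell types. Ano1, a calcium-activated chloride channel, had ratios of 6.87 (3.69 to 13.9) on the E12.5 plate and 4.27 (2.52 to 7.51) on the E11.5 plate. Neto2, an auxiliary subunit of kainate receptors, had ratios of 4.28 and 3.92, and Kcnd3, a voltage-gated potassium channel, of 5.03 and 3.25. Among surface and matrix proteins, Thy1, a glycoprotein of fibroblasts and neurons, had ratios of 7.77 (5.16 to 12.1) and 3.19 (2.47 to 4.13). It was counted in 87.9% of E12.5 members and 29.4% of comparison wells, and in 69.0% and 32.0% on the E11.5 plate. Nectin1, a cell adhesion molecule, had ratios of 4.32 and 3.17, and Frem1, a protein of the basement membrane, of 2.86 and 3.36. Inside the cell, ratios were 3.45 and 4.89 for the small GTPase Arl4a, 2.88 and 5.08 for Rhod, another small GTPase, and 2.92 and 4.58 for Synpo2, an actin-binding protein of muscle.

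The 15 leading genes called lower depended more on the make-up of the comparison wells. Of Arrb2, Aspn, Sat1, Mef2c, Fibin, Neat1, Camk2d, Dab2, Cited2, Adam15, Parm1, Maf, Fam111a, Cpe and Syngr2, the 6 genes Sat1, Mef2c, Dab2, Adam15, Fam111a and Syngr2 were no longer called without the wells high in other cell types, and Arrb2 had too few counts to be tested there. The E11.5 fold of Sat1, for example, was 3.47 with all wells and 1.36 without those wells. Among the other 8, Aspn, a small proteoglycan-like matrix protein, was 3.49-fold lower (1.65 to 8.23) on the E12.5 plate and 4.95-fold lower (2.46 to 11.3) on the E11.5 plate. Cpe, which trims peptide hormones, was 7.64-fold and 2.31-fold lower. The transcription factor Maf was 3.20-fold and 2.33-fold lower, and the coregulator Cited2 3.48-fold and 2.57-fold lower. Fibin, a secreted protein listed here as a marker of cortical stroma, was 3.23-fold lower (1.17 to 11.1) and 3.08-fold lower (1.67 to 6.10).

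**Figure D2:**
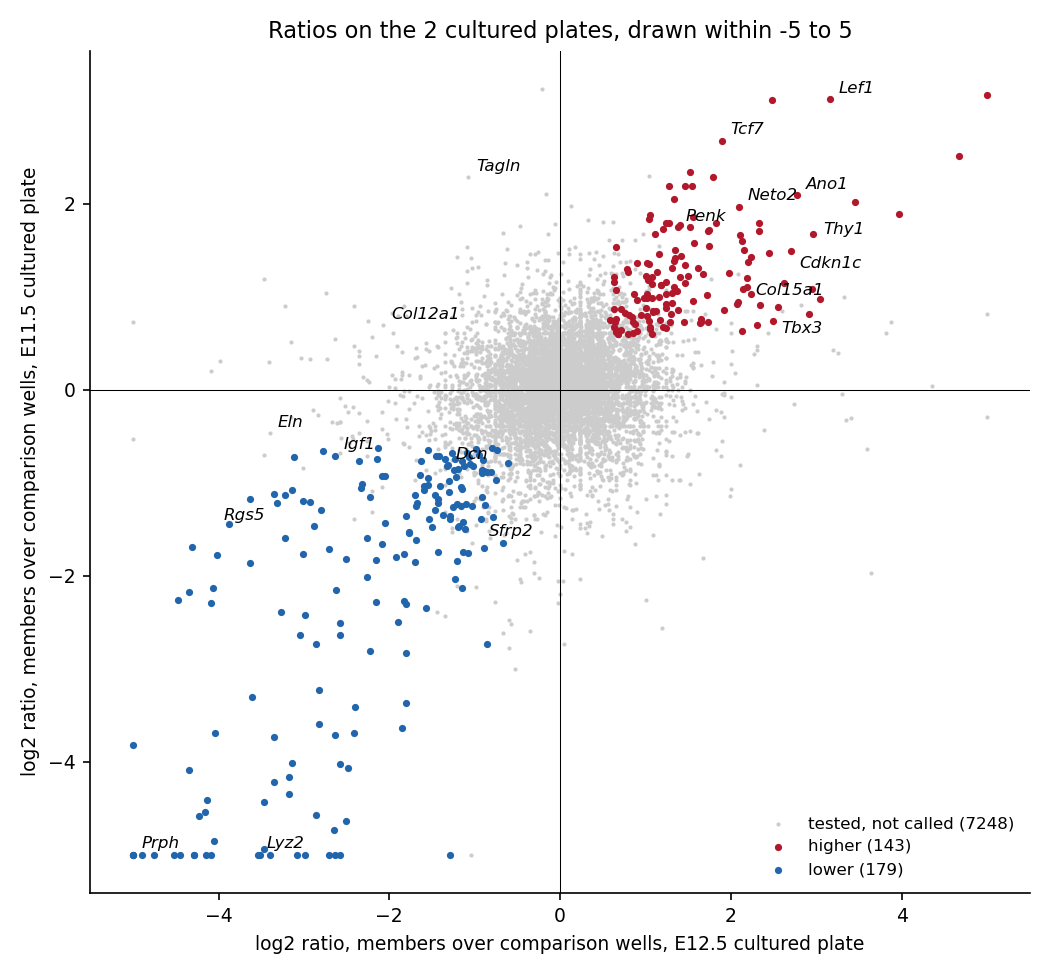
Log2 ratio of members over comparison wells on the E12.5 plate (x axis) and the E11.5 plate (y axis) for the 7570 genes tested; ratios beyond 5 either way are drawn at 5. The 143 genes called higher (red) lie at the upper right, the 179 called lower (blue) at the lower left with the macrophage gene Lyz2 and the neural gene Prph at its end, and Tagln and Col12a1 (grey) lie higher on one plate and lower on the other.

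The Wnt pathway was described by role. Of 2 ligand and R-spondin genes tested, Wnt5a, a ligand known for signalling outside beta-catenin, was higher. Its levels were 275 against 62.6 CPM on the E12.5 plate, a ratio of 4.39 (2.89 to 6.85), and 347 against 114 CPM on the E11.5 plate, a ratio of 3.03 (2.36 to 3.92). Member wells ran from 0 to 1234 CPM with a median of 232 on the first plate and from 0 to 1541 CPM with a median of 211 on the second, and the comparison medians were 0. Wnt5a was counted in 54.8% of members after thinning on both plates, against 23.8% and 28.0% of comparison wells. The other ligand-side gene, the R-spondin Rspo3, was not called, with ratios of 0.824 (0.385 to 1.72) and 0.656 (0.454 to 0.935).

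Of 10 Wnt receptor genes tested, 3 were called higher and 0 lower, with median log2 ratios of 0.20 and 0.41 beside 0.01 and 0.02 over all genes tested. The frizzled receptor Fzd1 had ratios of 1.60 and 1.51, the receptor kinase homologue Ptk7 of 2.07 and 1.59, and the R-spondin receptor Lgr4 of 2.94 and 1.93. None of these 3 calls held without the wells high in other cell types, where their E11.5 ratios were 1.17, 1.26 and 1.48. Lgr6 itself was hardly seen, with 1 count in E12.5 members and 5 in E11.5 members, against 1 and 0 in comparison wells.

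Of 8 Wnt feedback and target genes tested, 4 were called higher and 0 lower, with median log2 ratios of 1.36 and 0.96. Besides Lef1 they were Tcf7, the related DNA-binding protein, Axin2, a scaffold of the complex that destroys beta-catenin, and Nkd1, an inhibitor that acts on Dishevelled. Nkd1 was the most widely counted. Its wells had a lowest, median and highest value of 75.2, 373 and 1719 CPM in E12.5 members and of 0, 302 and 2757 CPM in E11.5 members, against 0, 0 and 558 and 0, 63.1 and 1083 CPM in the comparison wells. The ratios were 4.46 (3.24 to 6.21) and 2.83 (2.24 to 3.58), and after thinning Nkd1 was found in 87.1% and 66.7% of members against 33.3% and 36.6% of comparison wells. Tcf7 rested on 19 and 21 member counts, with ratios of 3.73 (1.43 to 11.4) and 6.41 (2.35 to 21.7). Axin2 rested on 20 and 24 member counts, with ratios of 4.71 (1.72 to 16.1) and 2.03 (1.06 to 3.98), and was not called without the wells high in other cell types, where the E11.5 ratio was 1.56. Ccnd1, a cyclin of G1 phase that Wnt signals can induce, had ratios of 1.77 and 1.48 with all wells and 4.52 and 2.90 without those wells, where it was called. Tcf7l1 and Tcf7l2, the other DNA-binding proteins of the pathway, were not called, with ratios of 0.704 and 1.17 for the first and 0.608 and 0.804 for the second.

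Of the Wnt lists, only the secreted antagonists had genes called lower. Of 4 tested, Sfrp2, which binds Wnt proteins outside the cell, and Dkk2, which binds the coreceptor, were lower, and 0 were higher. Sfrp2 stood at 240 against 457 CPM on the E12.5 plate, 1.91-fold lower (1.5 to 2.47), and at 114 against 300 CPM on the E11.5 plate, 2.62-fold lower (1.98 to 3.51). Dkk2 was 2.19-fold lower (1.10 to 4.69) and 3.36-fold lower (1.98 to 6.02). Both calls held without the wells high in other cell types. Under the alternative settings where it was tested, Sfrp2 kept its call in 11 of 13 and Dkk2 in 7 of 12. Notum, an antagonist also on the feedback list, had too few counts to be tested but was higher in members. It stood at 45.8 against 2.16 CPM on the E12.5 plate and 39.9 against 4.76 CPM on the E11.5 plate. Frzb and Sfrp4, also untested, were lower in members on the E12.5 plate and higher on the E11.5 plate.

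The stretches of DNA just before the starts of Lef1, Axin2 and Nkd1 are shown because these genes of 1 pathway were higher together and had the most member counts among the 4 called. Each run is the 250 bases upstream of the most upstream start in the RefSeq table for build GRCm38.p6, on the plus strand, 5′ to 3′, at chr3:131110047-131110296, chr11:108920099-108920348 and chr8:88527383-88527632. Capitals would mark CTTTGA or its reverse complement TCAAAG, the core letters known to be bound by Lef1 and Tcf7, and none occurs.
Lef1: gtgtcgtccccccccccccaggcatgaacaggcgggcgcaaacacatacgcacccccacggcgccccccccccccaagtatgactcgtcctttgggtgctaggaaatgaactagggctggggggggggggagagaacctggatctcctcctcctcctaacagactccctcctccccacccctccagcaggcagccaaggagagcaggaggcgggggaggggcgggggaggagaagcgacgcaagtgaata
Axin2: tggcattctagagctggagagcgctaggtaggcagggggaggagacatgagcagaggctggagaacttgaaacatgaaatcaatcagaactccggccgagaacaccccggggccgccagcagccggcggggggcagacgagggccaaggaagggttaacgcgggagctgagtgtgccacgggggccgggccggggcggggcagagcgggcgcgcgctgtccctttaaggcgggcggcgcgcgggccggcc
Nkd1: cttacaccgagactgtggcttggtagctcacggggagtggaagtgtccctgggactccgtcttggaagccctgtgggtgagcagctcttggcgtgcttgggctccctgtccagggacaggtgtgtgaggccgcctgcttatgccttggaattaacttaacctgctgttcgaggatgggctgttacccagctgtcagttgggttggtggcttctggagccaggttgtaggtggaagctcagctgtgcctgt
On either strand these letters were found in 4544 of 32851 windows of the same length in that table (13.8%). No match in 3 windows of 250 bases says only that the letters are not in these windows. GC content was 66.4% for Lef1, 69.2% for Axin2 and 58.4% for Nkd1.

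Transcription factors of position and regional identity followed. Of 8 posterior Hox genes tested, which pattern the trunk and its mesenchyme along the body axis, 5 were called higher and 0 lower, with median log2 ratios of 0.87 and 1.14. Hoxa10 had ratios of 3.13 and 1.66, Hoxa11 of 2.16 and 3.19, Hoxd9 of 2.23 and 2.75, Hoxd10 of 2.04 and 2.26, and Hoxd11 of 1.64 and 1.82. Hoxa11, Hoxd9 and Hoxd10 were called without the wells high in other cell types as well. Hoxa11 and Hoxd11 are both known from kidney development. Hoxc9 and Hoxc10 passed on the E11.5 plate alone, with ratios of 2.77 and 2.16 there and 0.981 and 1.21 on the E12.5 plate.

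The T-box genes Tbx2 and Tbx3, repressors known from the mesenchyme around the ureter, were higher. Tbx2 stood at 300 against 102 CPM on the E12.5 plate, a ratio of 2.96 (2.09 to 4.24), and at 260 against 86.9 CPM on the E11.5 plate, a ratio of 2.99 (2.24 to 4.02). Its median member wells were 301 and 141 CPM and both comparison medians were 0. Tbx3 had ratios of 5.63 and 1.67 and was not called without the wells high in other cell types, where the E11.5 ratio was 1.32. Of the 8 ureteric mesenchyme genes tested these were the only 2 called. The list had median log2 ratios of 0.55 and 0.44, with 5 and 6 of the 8 genes above 0. Summed, it stood at 1557 and 1100 CPM in members and at 896 and 803 CPM in comparison wells. Ptch1, also on this list, stood at 252 against 112 CPM on the E12.5 plate and 196 against 139 CPM on the E11.5 plate. Gli1 stood at 107 against 69.1 and 98.0 against 64.3 CPM. Tbx18, the defining factor of that mesenchyme, had ratios of 0.916 (0.624 to 1.33) and 0.585 (0.345 to 0.960), and Sox9 of 0.973 and 0.365.

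**Figure D3:**
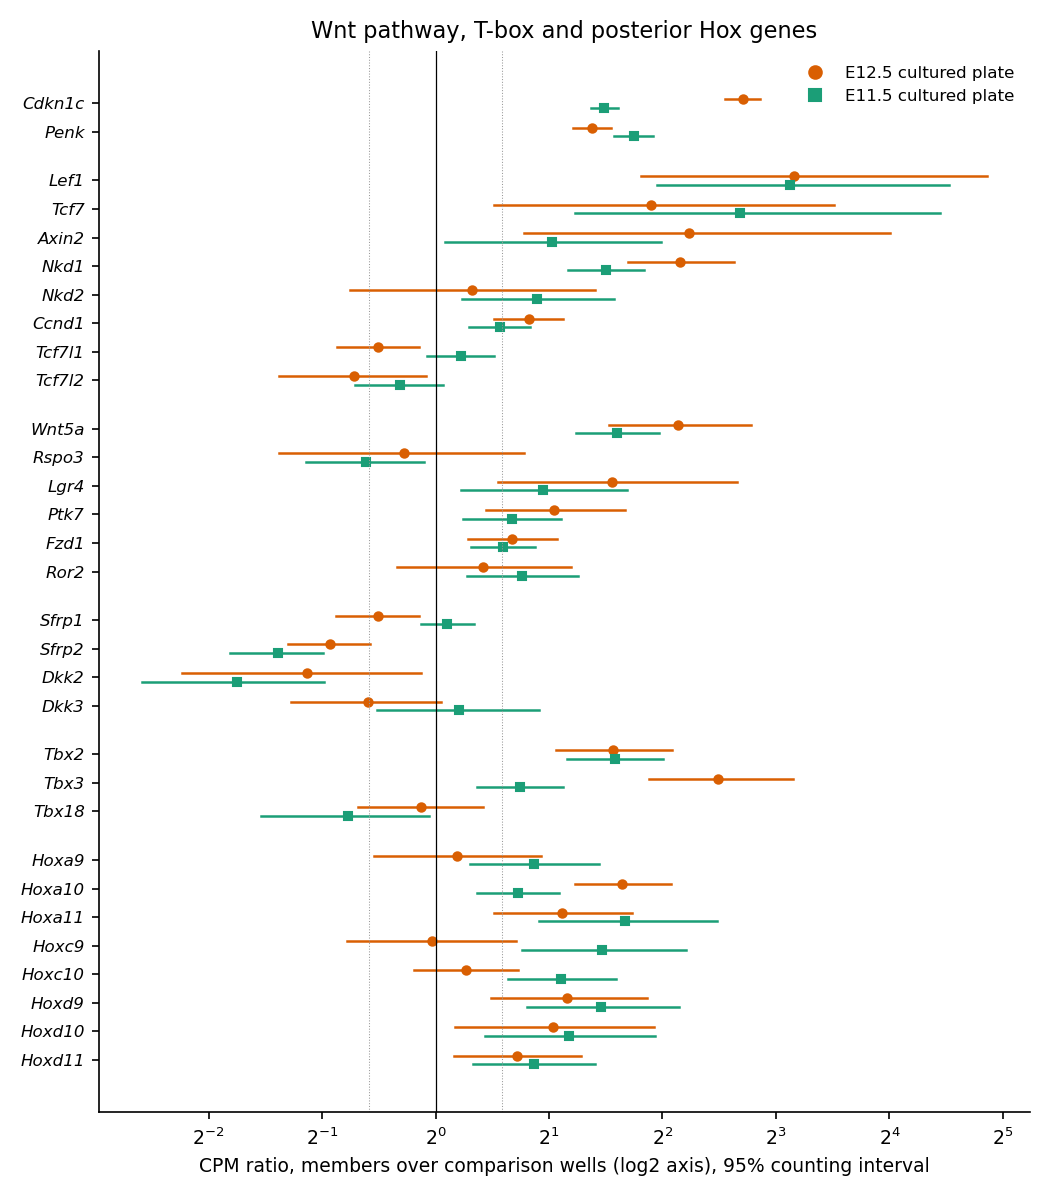
CPM ratio of members over comparison wells on a log2 axis with 95% counting intervals, for the label markers, the Wnt pathway genes, 3 T-box genes and the posterior Hox genes on the E12.5 (circles) and E11.5 (squares) plates; dotted lines mark 1.5-fold. Lef1, Tcf7, Nkd1 and Wnt5a lie to the right and Sfrp2 and Dkk2 to the left on both plates, while Tbx18 has a ratio below 1 and Tbx3 lies farther right on the E12.5 plate.

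Of 31 mesenchymal transcription factors tested, Tbx2 and Tbx3 were among the 3 called higher and 4 were lower, with median log2 ratios of -0.02 and -0.03. Foxp1 was 2.92-fold and 1.93-fold lower, Ebf1 6.87-fold and 1.58-fold, Nfib 2.40-fold and 1.60-fold, and Osr1, a factor of early kidney mesenchyme, 3.02-fold and 2.12-fold. These 4 lower calls held without the wells high in other cell types, where Klf4 was lower too and Tbx2 was the only one called higher.

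Cortical stroma markers were low or mixed. Of 9 tested outside the rule, 1 was called higher, which was not called without the wells high in other cell types, and Fibin and Aldh1a2 were lower. Aldh1a2, the enzyme that makes retinoic acid in cortical stroma, was 4.42-fold lower (1.67 to 14.7) on the E12.5 plate and 1.68-fold lower (1.09 to 2.66) on the E11.5 plate. In the 8 retinoid genes tested it was the only lower one, and Stra6, a receptor that takes up retinol, was the only higher one, with ratios of 7.57 and 1.76. Stra6 was not called without the wells high in other cell types (E11.5 ratio 1.48). Foxd1, which the rule held below 2 counts per well, had 3 and 8 counts in members.

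Markers of the cells that form nephrons were mixed. Of 4 early nephron genes tested, 1 was lower and 0 were higher with all wells, and without the wells high in other cell types Ccnd1, which is on this list too, was higher. The summed list stood at 832 and 801 CPM in members and at 604 and 652 CPM in comparison wells. Lhx1 and Fgf8, which mark the condensing nephron precursors that also make Wnt4, had 0 counts in members on both plates, which at 3 counts over the group allows levels of up to 7.63 and 5.44 CPM. Fgf8 was at 0 in the comparison wells of both plates as well, and Lhx1 at 6.48 and 1.19 CPM, so neither gene sets the groups clearly apart. Pax8 had 4 counts in members of each plate, and Jag1 6 and 16. Pax8 levels were 10.2 and 7.26 CPM in members and 15.1 and 7.14 CPM in comparison wells, and Jag1 levels 15.3 and 29.0 against 30.2 and 16.7 CPM. Pax2 stood at 28.0 and 7.26 CPM in members and at 15.1 and 3.57 CPM in comparison wells. Wt1, which nephron progenitors and podocytes make but also other mesenchyme, was not called, with ratios of 1.32 and 1.37. Of 2 nephron progenitor genes tested, Osr1 was lower and 0 were higher. None of the ureteric and tubule epithelium genes or of the gonad, adrenal and Mullerian genes had enough counts to be tested. The summed epithelial list outside the rule stood at 12.7 and 49.0 CPM in members and 13.0 and 58.4 CPM in comparison wells.

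Smooth muscle genes showed how much 1 well can weigh. Of 7 tested, Myh11, Myl9, Tpm2 and Synpo2 were called higher, with median log2 ratios of 0.80 and 1.51. Myh11, the myosin heavy chain of smooth muscle, had ratios of 2.65 (2.05 to 3.48) and 3.41 (1.71 to 7.13), but 1 member held 91.7% of its counts on the E12.5 plate and 1 member 75.9% on the E11.5 plate. Without wells deeper than 3 times the median of their plate, the E12.5 ratio of Myh11 was 0.369. Myl9, a myosin light chain, had ratios of 2.06 and 2.56, with 41.7% of its E12.5 member counts in 1 well. Acta2 and Tagln, an actin and an actin-binding protein of the same cells, pointed opposite ways on the plates. Acta2 had ratios of 0.651 and 2.86, and Tagln of 0.475 and 4.89. In the comparison wells Acta2 stood at 2427 CPM on the E12.5 plate, 66.5% of it from 1 well, and at 237 CPM on the E11.5 plate. Tpm2, a tropomyosin, had ratios of 1.74 on both plates and was not called without the wells high in other cell types. Synpo2 was spread more widely, with at most 23.1% of its member counts in 1 well. In the 6 pericyte, mesangial and renin cell genes tested, Rgs5 was lower, at 9.92-fold and 2.33-fold, and 1 comparison well held 54.3% of its counts on the E11.5 plate. Without the wells high in other cell types Cspg4 and Kcnj8 were called lower too.

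Cell cycle genes were called in both directions. Of 6 CDK inhibitors and D cyclins tested, Cdkn1c and Ccnd2 were higher and Cdkn1a was lower. Ccnd2, a D cyclin, stood at 2141 against 1012 CPM and 2151 against 927 CPM, ratios of 2.12 (1.89 to 2.38) and 2.32 (2.12 to 2.54). Cdkn1a, a CDK inhibitor induced by p53, was 8.66-fold and 1.65-fold lower, and its E11.5 ratio was 1.03 without the wells high in other cell types. Of 19 proliferation genes tested, Ube2c was lower and 0 were higher, with median log2 ratios of -0.40 and -0.20. One member held 58.8% of the Ube2c counts of the E12.5 members. Mki67, the antigen of cycling cells, had ratios of 0.525 and 0.739, and was called lower without the wells high in other cell types.

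Cdkn1c is imprinted, but other imprinted growth genes did not move with it. Of 17 tested, Cdkn1c was higher and Zim1, a zinc finger gene, was lower, at 10.2-fold (2.53 to 89.0, on 2 member counts) and 2.17-fold. The median log2 ratios of the list were -0.35 and -0.13. H19, the untranslated RNA beside Igf2, had ratios of 0.784 and 0.968, and Igf2 of 0.724 and 1.21.

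In the insulin-like growth factor list, 0 of 11 genes were higher, and Igf1 and Igfbp3 were lower. Igf1, the growth factor itself, stood at 48.3 against 300 CPM on the E12.5 plate, 6.22-fold lower (3.83 to 10.6), and at 444 against 726 CPM on the E11.5 plate, 1.63-fold lower (1.41 to 1.90). For Igfbp3, a binding protein, 1 comparison well held 61.4% of the comparison counts on the E12.5 plate and 1 held 58.4% on the E11.5 plate. Igfbp3 was 2.11-fold and 3.39-fold lower with all wells, and 2.36-fold and 1.62-fold lower without the wells high in other cell types.

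Matrix genes were called in both directions. Of 17 collagen genes tested, Col15a1, Col18a1 and Col23a1 were higher and 0 were lower, and without the wells high in other cell types Col14a1 was lower. Col15a1 and Col18a1, related collagens found at basement membranes, had ratios of 4.57 and 2.30 and of 4.39 and 1.55. For Col18a1 1 comparison well held 44.0% of the comparison counts on the E11.5 plate, and without the wells high in other cell types its ratio there was 3.92. Col4a1 and Col4a2, chains of the main collagen of basement membranes, were not called, with ratios of 1.18 and 1.60 and of 1.13 and 1.28. Col23a1, a transmembrane collagen, had ratios of 5.06 and 1.87 and was not called without the wells high in other cell types (E11.5 ratio 1.44). Of 22 other matrix genes tested, Vcan was higher and Dcn, Aspn and Lox were lower, with median log2 ratios of -1.18 and -0.07. Vcan, a large proteoglycan, had ratios of 4.58 (3.33 to 6.37) and 2.15 (1.74 to 2.65). Dcn, the collagen-binding proteoglycan decorin, stood at 838 against 2090 CPM and at 1280 against 2256 CPM, 2.49-fold lower (2.20 to 2.84) and 1.76-fold lower (1.62 to 1.93). Lox, which crosslinks collagen and elastin, was 4.38-fold and 1.55-fold lower. Without the wells high in other cell types Lum, Postn, Eln and Fbln2 were called lower too.

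Calls in the other signalling lists stand beside 1.89% of all genes tested called higher and 2.36% called lower. Of 11 BMP and TGF-beta response genes, Id3 and Id4, inhibitors of helix-loop-helix factors, were higher, at ratios of 1.55 and 1.83 and of 1.86 and 1.96, and neither was called without the wells high in other cell types. Of 7 ligands and antagonists of that family, Tgfb1 was lower, at 2.83-fold and 2.79-fold with all wells, while without those wells it had too few counts to be tested and Tgfb3 was lower. None of 8 hedgehog pathway genes was called, the receptor and target Ptch1 having ratios of 2.24 (1.59 to 3.20) and 1.41 (1.07 to 1.84). Of 6 Notch pathway genes, the target Heyl was lower, at 19.8-fold (6.51 to 98.4) and 3.22-fold (1.61 to 7.11). Of 18 peptide and guidance genes, Penk and the guidance cue Sema3c were higher, and the chemokine Cxcl12 and the guidance cue Slit3 were lower. Sema3c had ratios of 4.96 and 1.62 and was not called without those wells (E11.5 ratio 1.27), and Cxcl12 was 2.93-fold and 2.03-fold lower. Slit3 stood at 35.6 against 97.2 CPM on the E12.5 plate and 43.6 against 71.4 CPM on the E11.5 plate. It kept its call in only 4 of 13 alternative settings, while Cxcl12 kept its call in all 13. None of 16 immediate early and dissociation genes was called with all wells, and without those wells Atf3 was lower. Of 19 hypoxia and glycolysis genes Higd1a was higher, at ratios of 1.80 and 1.66, and was not called without those wells (E11.5 ratio 1.41).

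Markers of macrophages, neurons and endothelium were low in members. Of 7 macrophage genes tested 7 were lower, of 2 neural genes 2 were lower, and of 2 endothelial genes Cd93 was lower. The wells high in other cell types were picked by these same lists, and without them Cd93 and these macrophage and neural genes had too few counts to be tested. The macrophage list summed to 25.4 and 65.3 CPM in members and to 776 and 2702 CPM in comparison wells. The neural list summed to 12.7 and 116 CPM in members, with Sox10, Fabp7, Tubb3, Foxd3 and Elavl4 at 0 in the E12.5 members, and to 365 and 578 CPM in comparison wells. The part of these wells in the other lower calls is given by the values without them.

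The members themselves were not alike. Among E11.5 cells, the 18 members with Wnt4 only lay nearer to the comparison wells than the members with both genes did in several genes, not in all. Their Cdkn1c level was 1454 CPM, against 4304 CPM in the 20 members with both genes and 1060 CPM in comparison wells. Penk stood at 792 CPM with Wnt4 only, 2289 CPM with both genes and 502 CPM in comparison wells. Lef1 was at 22.9 CPM (7.44 to 53.5) with Wnt4 only and 79.3 CPM (49.7 to 120) with both. Igf1 ran the other way, at 924 CPM with Wnt4 only, 151 CPM with both and 726 CPM in comparison wells, and Dcn at 1925, 963 and 2256 CPM. Hoxd10 was at 13.7 CPM (2.84 to 40.2) with Wnt4 only and 101 CPM (67.1 to 146) with both. Other genes did not follow this order. The matrix gene Ecm1 was at 837 CPM with Wnt4 only, 805 CPM with both and 186 CPM in comparison wells. Col1a1, a gene of the rule, was at 15674, 9531 and 10404 CPM. Nkd1, at 321, 465 and 137 CPM, and Tbx3, at 225, 260 and 136 CPM, lay nearer to the members with both genes. The 4 members with Alx1 only had 2145 CPM of Penk, 234 CPM of Lef1, 18.0 CPM of Igf1 and 325 CPM of Dcn. Median depth was 10832 counts with Wnt4 only and 11726 with both genes. On this plate Cdkn1c and Penk were thus higher in members with Alx1 counts than in those with Wnt4 only, which in turn lay above the comparison wells.

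On the E12.5 plate Cdkn1c was higher in members with both genes than in those with Wnt4 only, but not in those with Alx1 only. Penk, Igf1 and Dcn did not show the division of the E11.5 plate. Its 7 members with Wnt4 only had 3496 CPM of Cdkn1c and 3275 CPM of Penk, and its 3 members with Alx1 only 2783 and 2653 CPM. The 23 members with both genes had 6610 CPM of Cdkn1c and 2203 CPM of Penk. Igf1 was at 29.7 CPM with Wnt4 only and 56.2 CPM with both, against 300 CPM in comparison wells. Dcn was at 149 CPM with Wnt4 only and 956 CPM with both, against 2090 CPM in comparison wells. With 7 and 18 wells in the Wnt4-only groups, the difference between the plates was not tested.

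Levels were also read along the number of Wnt4 and Alx1 counts, for which wells just outside the rule can be set beside those just inside. On the E12.5 plate Cdkn1c stood at 897 CPM with 0 counts, 1503 with 1 or 2, 1953 with 3 or 4, 3468 with 5 to 9 and 10107 CPM with 10 or more. Median depth in these wells was 7547, 7842, 9226, 7927 and 13112 counts, so depth was also highest in the last class. Igf1 stood at 300, 160, 112, 33.3 and 18.1 CPM over the same classes. On the E11.5 plate Cdkn1c stood at 1060, 1928, 3275, 1973 and 3916 CPM, an order with 1 step down. There the wells just inside, with 3 or 4 counts, had 86.7 CPM of Lef1 (48.6 to 143). Those just outside, with 1 or 2, had 46.2 CPM (29.6 to 68.7), and the intervals overlap. Lef1 stood at 28.6 CPM with 5 to 9 counts and 113 CPM with 10 or more. Igf1 on this plate stood at 726, 938, 691, 439 and 196 CPM over the classes. On the E12.5 plate Lef1 ran the other way, at 9.31 CPM just inside (0.236 to 51.9, on 1 count). Just outside it stood at 23.6 CPM (6.44 to 60.5), again with overlapping intervals. Penk there stood at 930, 1980, 1056, 2688 and 3094 CPM over the classes.

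**Figure D4:**
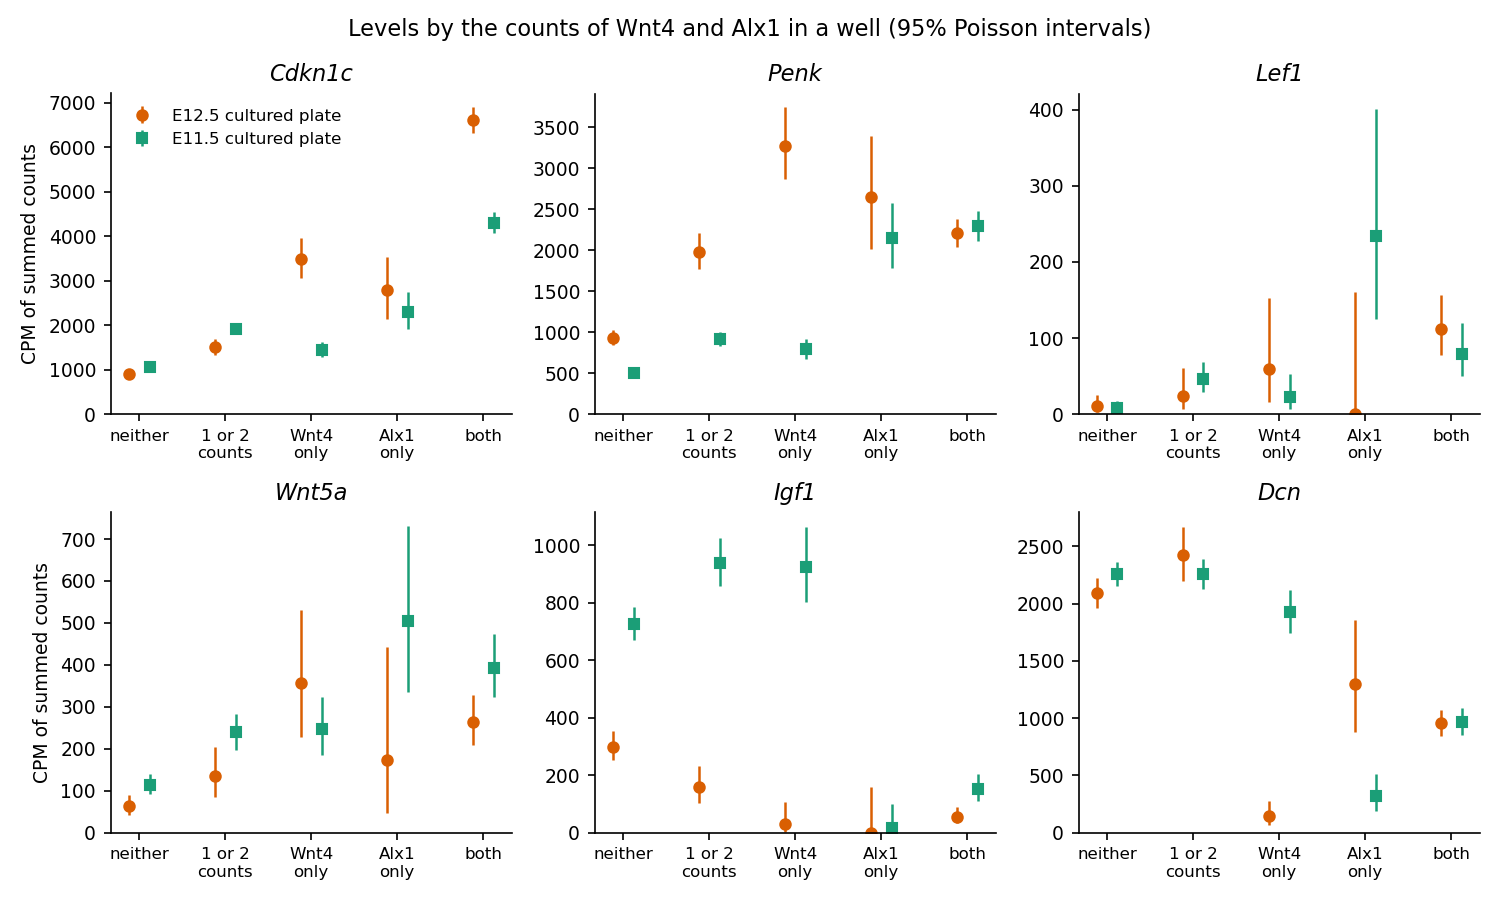
CPM of summed counts with 95% Poisson intervals for 6 genes in wells with neither gene, with 1 or 2 counts, and in members with Wnt4 only, Alx1 only or both, on the E12.5 (circles) and E11.5 (squares) plates. On the E11.5 plate the wells with Wnt4 only lie nearer to the wells with neither gene than to those with both in Cdkn1c, Penk, Igf1 and Dcn, and on the E12.5 plate they lie below those with both in Cdkn1c and above them in Penk.

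Members of one plate were also set beside members of the other, with the same ratio in comparison wells; whether the ratios differ between members and comparison wells was not tested. Cdkn1c was 1.97-fold higher (1.85 to 2.10) in E12.5 members than in E11.5 members, while in comparison wells that ratio was 0.846 (0.752 to 0.952). Wnt4 differed little, with a ratio of E12.5 over E11.5 members of 1.12 (0.943 to 1.33), and Alx1 was 1.53-fold higher (1.11 to 2.11). Penk was 1.43-fold higher in E12.5 members and 1.85-fold higher in E12.5 comparison wells. E11.5 members had 9.19-fold more Igf1 (5.77 to 15.5) than E12.5 members, against 2.41-fold in comparison wells, and 5.10-fold more Dlk1, an imprinted surface protein, against 1.68-fold. The larger number of Wnt4-only wells among the E11.5 members stands beside these values, and its part in them was not tested. The ratios of E12.5 over E11.5 members were 1.33 (0.831 to 2.13) for Lef1 and 1.27 (0.645 to 2.48) for Tcf7. They were 1.24 (1.02 to 1.52) for Nkd1 and 1.16 (0.899 to 1.49) for Tbx2. These ratios lay below 1.5, but the intervals of Lef1, Tcf7 and Nkd1 reach beyond it.

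The reporter transcripts were close in members and comparison wells or somewhat higher in members. tdTomato transcripts were at 81.4 CPM in E12.5 members and 67.0 CPM in comparison wells, a ratio of 1.22 (0.718 to 2.06), and at 85.3 and 52.4 CPM on the E11.5 plate, a ratio of 1.63 (1.06 to 2.52). They were counted in 60.6% and 61.9% of members and in 35.3% and 32.0% of the shallower comparison wells. The transcript of the Lgr6 allele, EGFP_IRES_Cre in the tables, had ratios of 1.84 (0.944 to 3.69) and 1.60 (0.826 to 3.11). Neither reporter was called on both plates, and these intervals do not exclude a difference of 1.5-fold.

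The same rule was applied to the uncultured E11.5 plate, where 5 of 46 wells within the limits passed (10.9%, 3.62 to 23.6%). With so few wells, only their values are described. Alx1 was counted in all 5 wells, with 22 counts in all, and Wnt4 in 3 wells with 4 counts. Lef1 had 10 counts in these wells and 1 count in the 25 comparison wells of that plate, a ratio of 21.3 (3.03 to 925). Nkd1 had a ratio of 3.55 (1.65 to 7.97), Hoxd11 of 3.08 (1.22 to 8.16), and Tcf7 had 6 counts against 0. Of the 20 Nkd1 counts 12 came from 1 well, which also held 58 of the 100 Cdkn1c counts, and Axin2 had 1 count. Cdkn1c and Penk went the other way, with ratios of 0.732 (0.576 to 0.919) and 0.0625 (0.00744 to 0.235). Lhx1, Pax8 and Fgf8 had 0 counts in the 5 wells, and 4, 6 and 0 counts in the 25 comparison wells. Before culture, then, the wells picked by this rule all held Alx1, and their Cdkn1c and Penk were not above those of the comparison wells.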

How the data were processed

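SORT-seq counts of 3 plates were used. Per the submitters' processing notes, STAR 2.6.1a, featureCounts 1.5.2 and build GRCm38.p5 were involved; the sources used here do not give their settings. The authors deposited expected counts, molecular identifiers corrected for repeated draws; 1.53% and 1.43% of values above 0 on the cultured plates were not whole. Counts were rounded for intervals and thinning only. CPM left out mitochondrial genes, spike-ins and added sequences from the total. The 15 control and 42 multi-cell wells per cultured plate were set apart. Ratios carry exact binomial (Clopper-Pearson) and levels exact Poisson intervals; no count model was fitted and no p-value computed. Named genes were the 15 per direction with the largest smaller ratio of the plates, counted in at least 20% of the wells of the higher group, and with at most 30% of its counts in 1 well, plus called genes and the most counted others of 33 lists (13 cell type, 20 programme). Members, lists and tests were chosen with earlier results of these data known. The call rule alone was tested on simulated group sums with counting error only, without differences between wells. Alternatives covered the member limit, depth, deep wells, averaging, scaling, count minimum, the top well, the fold and each marker alone; leaving out wells high in other cell types was added after seeing the data. Scripts ran on scipy 1.17.1, numpy 2.4.6, pandas 2.3.3, matplotlib 3.10.9 and python 3.11.15. RefSeq promoter sequences were matched by symbol. A few genes counted in the lists are not reported here by name.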

Additional observations from a re-analysis of the deposited data

Results flagged for a closer look

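Among the named genes, 4 passed the limits in opposite directions on the cultured plates, and the difference between the plates was not tested. Dusp1, an immediate early phosphatase, had a ratio of members over comparison wells of 2.24 on the E12.5 plate and 0.574 on the E11.5 plate. Col12a1, a collagen that binds fibrils, had ratios of 0.238 and 1.61. Tagln had ratios of 0.475 and 4.89, and Acta2 of 0.651 and 2.86. On the E12.5 plate 1 comparison well held 61.0% of the comparison counts of Tagln and 1 held 66.5% of those of Acta2, while no comparison well of the E11.5 plate held over 10.6% of either.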

How the results depend on the processing

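No paired analysis was possible because each group is 1 plate and the result comes from no test. Of 1569 values for 81 named genes under the alternatives, 1341 kept their direction within the counting interval, 196 moved beyond it and 32 reversed; a gene under 20 counts, or without member counts, has no value there. The cause of these changes was not tested, except that single-gene member sets hold few wells.

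The Cdkn1c ratio on the E12.5 plate was 8.16 for members of at least 5 counts, 5.85 in wells of 5000 to 20000 counts, 7.37 for members with both genes, 3.90 with Wnt4 alone and 3.10 with Alx1 alone. On the E11.5 plate it was 2.51 for at least 2 counts, 2.31 by depth, 4.06 with both genes, 1.37 with Wnt4 alone, 2.18 with Alx1 alone and 2.22 without wells high in other cell types. The Penk ratio was 3.14 for at least 5 counts and 3.52 with Wnt4 alone on the E12.5 plate. On the E11.5 plate it was 2.6 as a mean over wells, 4.56 with both genes, 1.58 with Wnt4 alone, 4.27 with Alx1 alone and 2.73 without wells high in other cell types. The E11.5 tdTomato ratio was 0.963 with Wnt4 alone and 0.689 with Alx1 alone. With every well thinned, the rule found 20 members on the E11.5 plate.

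Genes called higher numbered 76 at 2-fold, 35 with Wnt4 alone and 38 with Alx1 alone. Genes called lower numbered 83 at a minimum of 50 counts, 90 without the top well, 80 with Wnt4 alone, 30 with Alx1 alone and 80 without wells high in other cell types. List genes called higher numbered 17 at 2-fold, 12 with Wnt4 alone, 9 with Alx1 alone and 18 without wells high in other cell types, where 32 were called with all wells. List genes called lower, also 32, numbered 19 at 50 counts, 17 without the top well, 21 at 2-fold, 18 with Wnt4 alone and 11 with Alx1 alone.

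Reversed ratios with Wnt4 alone were, on the E11.5 plate, Arl4a 0.987, Aldh1a2 1.10, Col18a1 0.607, Hoxd10 0.428, Hoxd11 0.894, and Igf1 1.27, and on the E12.5 plate Igfbp3 1.22, Myh11 0.404 and Ptk7 0.743. With Alx1 alone they were, on the E12.5 plate, Arl4a 0.477, Neat1 1.11, Syngr2 1.67, Id4 0.835, Lox 1.22, Tgfb1 1.00 and Tpm2 0.667, and on the E11.5 plate Col23a1 0.266, Ebf1 2.13, Myl9 0.158, Rgs5 1.24, Tbx3 0.532, Tpm2 0.659 and Ube2c 2.22. By depth they were Igfbp3 1.28 and Myh11 0.564 on the E12.5 plate and Rgs5 1.08 on the E11.5 plate. Without wells over 3 times the median count Igfbp3 was 1.22 and Myh11 0.369. Single reversals were Rgs5 2.13 for at least 2 counts (E11.5), Tpm2 0.984 for at least 5 counts (E12.5), Tgfb1 1.02 as a mean over wells (E12.5) and Cdkn1a 1.03 without wells high in other cell types (E11.5).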

Other observations

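Some genes outside the lists, picked after their values were seen from the 143 called higher, are given as values only. Nts, the precursor of the peptide neurotensin, had 32 member counts against 1 on the E12.5 plate, a ratio of 37.7 (6.29 to 1534), and a ratio of 9.0 (4.39 to 20.7) on the E11.5 plate, where 1 member held 51.0% of its counts. Its receptor Ntsr1 was higher too, with ratios of 2.03 (1.21 to 3.46) and 2.56 (1.47 to 4.56). Ramp2 and Calcrl, which together form a receptor for adrenomedullin, had ratios of 2.55 and 2.11 and of 2.35 and 2.03, and Calcrl was not called without the wells high in other cell types. Pth1r, the receptor for parathyroid hormone and its related protein, had ratios of 2.01 and 2.34, and Fgfr2, a fibroblast growth factor receptor, of 3.20 and 2.36. Ncam1 was counted in 100% of E12.5 members, with ratios of 2.11 and 1.98, Negr1 had ratios of 6.15 and 2.22, and Ntm of 2.75 and 4.58. Nrxn3 had 65 counts in E12.5 members and 0 in comparison wells, at least 25.5-fold higher, with 3 counts over the group taken as the floor, and a ratio of 5.70 on the E11.5 plate. Kcnd2, a potassium channel gene related to Kcnd3, had ratios of 4.71 and 2.70.

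In the multi-cell wells of the labels, Wnt4 and Alx1 together stood at 305 CPM on the E12.5 plate (38 wells) and 103 CPM on the E11.5 plate (36 wells). All kept single-cell wells stood at 278 and 194 CPM. The 15 control wells of each plate had 2 and 0 counts of the pair among only 2940 and 2738 nuclear-encoded counts. That is 680 CPM (82.4 to 2457) and 0 CPM (0 to 1347), so the control wells cannot show how low the background was.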
